A study of Mus musculus with 6 samples.

Results

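The S100 family was described here through 8 genes, S100a8, S100a9, S100a1, S100a4, S100a6, S100a10, S100a11 and S100a13, out of 20458 gene names in the authors' table. The members were chosen by gene name with their measured values in the same contrast already known, so the values below are a description and support nothing by themselves. RNA of sorted follicular B cells of C57BL/6 mice was sequenced, with 3 samples from CD23Cre+Myh9wt/fl mice (wt/fl) and 3 from CD23Cre+Myh9fl/fl mice (fl/fl). The cells had been sorted as B220+, AA4.1-, CD23+ and CD21lo, and the age of the mice is not given in the labels. Both genotypes carried Cre driven by the CD23 promoter, which acts in mature B cells and deletes the part of Myh9 between LoxP sites. The control cells therefore had 1 intact Myh9 allele and were haploinsufficient, and no group without Cre or without a floxed allele was compared. The authors give 1 FPKM value (a read-fragment level given per transcript length and per library size) for each genotype, pooled over its 3 samples. The spread between mice is therefore not known here, and no difference was tested here. The authors' own comparison was not used, and the paper reports S100a9 among the genes significantly lower in fl/fl. The paper counts S100a9 among putative targets of p53 and cites a study in which myosin IIa stabilized p53. A role of p53 was not tested here.

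S100 proteins are small calcium sensors that work mostly as dimers and bind calcium through a pair of EF-hand loops, after which most of them expose a surface that binds partner proteins. S100A8 and S100A9 form calprotectin, a heterodimer that is very abundant in the cytosol of neutrophils and monocytes, sequesters zinc and manganese, and acts as an alarm signal once released. S100A4, S100A6, S100A10, S100A11 and S100A13 are made by many cell types, lymphocytes among them, where they are tied to the cytoskeleton, to annexins at membranes and to unconventional secretion.

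Myh9, the targeted gene, encodes the heavy chain of myosin IIa. Its level was 50.6 FPKM in wt/fl against 21.1 in fl/fl, so the fl/fl level was 41.7% of the wt/fl level. The value covers the whole entry and not the deleted part alone. The follicular B cell label was checked against 15 B cell markers, all of which had a mean level of 1 FPKM or more. Cd79b, a chain of the B cell receptor complex, was at 1638 FPKM in wt/fl against 1739 in fl/fl, and its partner Cd79a was at 1098 and 1115 FPKM. Ly6d, a surface protein of B lineage cells, was at 922 and 930 FPKM. Fcer2a, which encodes CD23 and was named for the sort and after its values were seen, was at 439 FPKM in wt/fl against 588 in fl/fl. Over the 15 markers the median log2 ratio was 0.03, where a log2 ratio is fl/fl over wt/fl after 1 FPKM was added to each value, which understates differences of low genes.

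The calprotectin genes S100a8 and S100a9 lie next to each other in the S100 cluster and were lower together, so their promoters are shown. They are RefSeq sequences on GRCm38.p6, from 250 bases before the annotated start to 30 bases after it, and 7 of the 8 members had a promoter in that source. The S100a8 stretch is chr3:90668821-90669100 on the plus strand and the S100a9 stretch is chr3:90695692-90695971 on the minus strand. Capitals mark matches, on either strand, to the TATA box form TATAAA, the C/EBP form TTGCNNAA, the ETS form AGGAAGT, the AP-1 form TGANTCA, the E-box CACGTG or the p53 half-site.
S100a8: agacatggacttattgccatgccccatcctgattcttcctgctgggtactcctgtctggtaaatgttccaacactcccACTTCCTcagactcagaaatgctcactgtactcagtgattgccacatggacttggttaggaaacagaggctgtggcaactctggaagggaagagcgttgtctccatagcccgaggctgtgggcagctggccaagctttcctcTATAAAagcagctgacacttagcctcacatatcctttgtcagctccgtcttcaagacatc
S100a9: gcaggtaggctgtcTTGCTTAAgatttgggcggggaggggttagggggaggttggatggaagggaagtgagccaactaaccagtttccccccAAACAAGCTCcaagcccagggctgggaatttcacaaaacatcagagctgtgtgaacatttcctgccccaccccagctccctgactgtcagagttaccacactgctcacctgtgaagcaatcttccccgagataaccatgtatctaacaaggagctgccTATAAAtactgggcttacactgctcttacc
A match to TATAAA began 30 bases before the S100a8 start, whereas in S100a9 it began at base 1 after the RefSeq start. GENCODE has 2 starts for each gene: for S100a9 at the RefSeq start and 10 bases downstream of it, and for S100a8 upstream of the RefSeq start and 240 bases downstream of it, so these distances hold for the RefSeq starts alone. TATAAA was found in 13.6% of 32851 promoter windows of 300 bases, and S100a4 was the remaining member with a match. S100a8 also held AGGAAGT, a form bound by ETS factors such as PU.1, which was present in 9.35% of windows. S100a9 held TTGCNNAA, a form of the C/EBP motif found in 10.8% of windows, and a p53 half-site, found in 8.36%. AGGAAGT was also in the S100a4 window. The forms of the ETS and C/EBP motifs that were searched first were thus not shared by S100a8 and S100a9. Shorter or looser forms were searched next, and these were shared: GGAAGT was in both windows and in 23.8% of all windows, and TTNNGNAA was in both and in 40.7% of all. GGAAGT was also in the S100a1, S100a4, S100a11 and S100a13 windows, and the S100a1 and S100a13 matches are the same bases in windows that overlap. The first forms were written after the promoters had been looked at and the looser ones with the matches in view. TTNNGNAA includes every TTGCNNAA match and GGAAGT every AGGAAGT match, and nothing is drawn from either set. TGANTCA occurred at 2 places in S100a11, and CACGTG at 1 place each in S100a11 and S100a6, against 7.81% and 7.15% of all windows that held them. A match describes letters in a window and not a bound site.

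S100a9 was at 175 FPKM in wt/fl against 34.5 in fl/fl. S100a8 was at 145 FPKM in wt/fl against 25.8 in fl/fl. For both subunits the wt/fl value was the higher, with 5.06-fold for S100a9 and 5.63-fold for S100a8 as plain ratios of FPKM. Their log2 ratios were -2.31 and -2.45. Of the 8 members, 7 had a mean level of 1 FPKM or more, and 2 of these 7, S100a8 and S100a9, were at least 2-fold lower in fl/fl, beside 40 of 9879 genes (0.405%) at that limit. None of the 7 members was at least 2-fold higher, beside 9 of 9879 genes (0.0911%). Both numbers of genes depend on the settings: with 0.1 FPKM added in place of 1 they were 77 lower and 34 higher, with a mean level of 5 FPKM or more 23 and 0, and 22, 19 and 18 were higher with 0.5 FPKM added, with the highest entry of each gene and after both genotypes were scaled to the same upper quartile. Because the members were chosen with this contrast known, nothing is read from these counts. In bulk RNA, fewer cells of a type and less RNA per cell cannot be told apart.

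**Figure D1:**
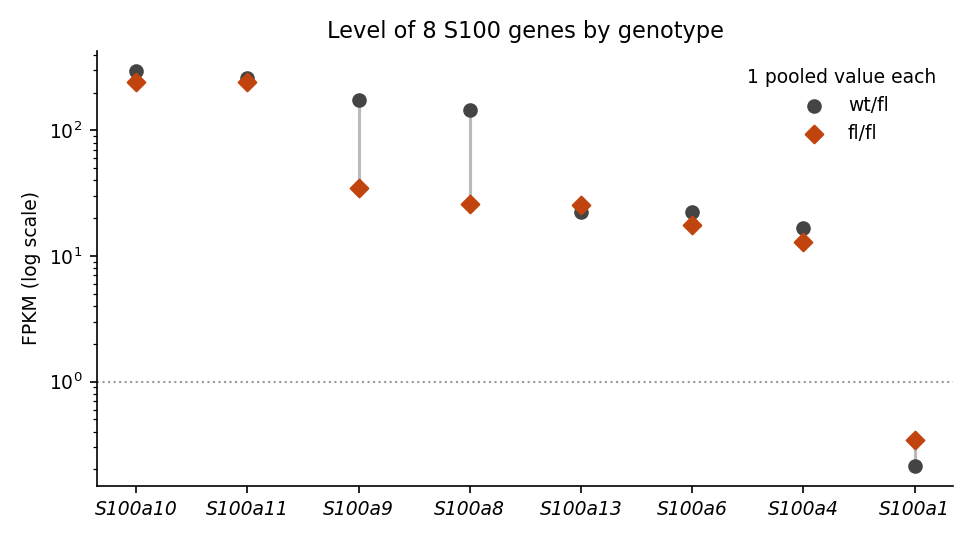
Level of the 8 S100 genes, 1 pooled FPKM value per genotype on a log axis, ordered by the mean of both genotypes; circles are wt/fl, diamonds are fl/fl and the dotted line is 1 FPKM. The symbols lie far apart for S100a9 (175 and 34.5 FPKM) and S100a8 (145 and 25.8 FPKM) and close together for S100a11 (260 and 244 FPKM).

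The 6 members listed as expressed by lymphocytes covered a wide range of levels. S100a10, the partner of annexin A2 and a member that does not need calcium, was at 299 FPKM in wt/fl against 244 in fl/fl, with a log2 ratio of -0.29. S100a11, which binds annexin A1, was at 260 and 244 FPKM, with a log2 ratio of -0.09 that became 0.02 when both genotypes were scaled to the same upper quartile. These were the members with the highest levels in both genotypes, at ranks 193 and 213 of 9879 genes in wt/fl and 232 and 234 in fl/fl. S100a6, which binds the calcyclin-binding protein, was at 22.5 and 17.7 FPKM. S100a4, which binds the myosin IIa heavy chain and disassembles its filaments, was at 16.8 FPKM in wt/fl and at 77.2% of that level in fl/fl. Both S100a6 and S100a4 were slightly lower in fl/fl, with log2 ratios of -0.32 and -0.35. S100a13, which takes part in the release of proteins that lack a signal peptide, was at 22.3 FPKM in wt/fl against 25.7 in fl/fl, with a log2 ratio of 0.20. S100a1, best known from heart and skeletal muscle, was at 0.214 and 0.341 FPKM and did not reach a mean of 1 FPKM. Its place among the lymphocyte members is thus not borne out by its level here.

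Across the 5 lymphocyte members with a mean level of 1 FPKM or more the median log2 ratio was -0.29, with 4 lower and 1 higher. The median over S100a8 and S100a9 was -2.38, and that over all 9879 genes was 0.00259. Upper quartile scaling moved the median of all genes to 0.11, and relative to the median of all genes the S100a10 value was -0.30 as deposited and -0.29 after scaling. S100a11 was then at -0.10 and -0.09, S100a4 at -0.35 under both, and S100a8 at -2.45 and -2.44. The central range of all genes, from the 5th to the 95th percentile, ran from -0.34 to 0.31, so that S100a4 lay just below it, and S100a6, S100a10, S100a11 and S100a13 lay inside it.

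**Figure D2:**
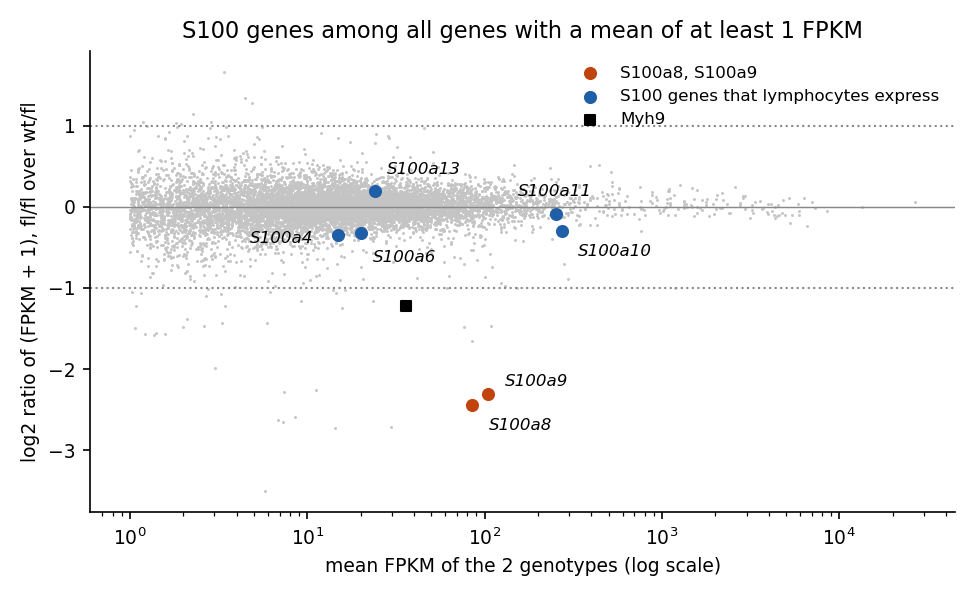
Log2 ratio of (FPKM + 1), fl/fl over wt/fl, against mean FPKM on a log axis for 9879 genes with a mean level of 1 FPKM or more (grey), with S100a8 and S100a9 in orange, the 5 lymphocyte members in blue and Myh9 as a square; dotted lines mark 2-fold. S100a8 (-2.45) and S100a9 (-2.31) lie below Myh9 (-1.22), and the blue points lie between -0.35 and 0.20.

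In wt/fl the order of levels from the highest ran S100a10, S100a11, S100a9, S100a8, S100a6, S100a13, S100a4 and S100a1. S100a6 and S100a13 were neighbours at 22.5 and 22.3 FPKM, and without a spread no order of such close values can be told. In fl/fl S100a10 and S100a11 both stood at 244 FPKM, S100a9 followed at 34.5 FPKM, and S100a8 and S100a13 were at 25.8 and 25.7 FPKM, and S100a6, S100a4 and S100a1 came last. S100a9 went from rank 319 of 9879 genes in wt/fl to rank 2234 in fl/fl, and S100a8 from rank 400 to rank 3000. The ratio of S100a8 to S100a9 was 0.830 in wt/fl and 0.746 in fl/fl.

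FPKM is given per transcript length, so levels of different genes can be summed. The 17 S100 genes of the table summed to 944 FPKM in wt/fl against 606 in fl/fl. S100a8 and S100a9 gave 33.9% of that sum in wt/fl and 9.95% in fl/fl. They accounted for 260 of the 338 FPKM by which the sum was lower, or 76.9%, and S100a10 for 55.3 FPKM. Without S100a8 and S100a9 the sum was 624 FPKM in wt/fl against 546 in fl/fl, which is 87.5% of the wt/fl sum.

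**Figure D3:**
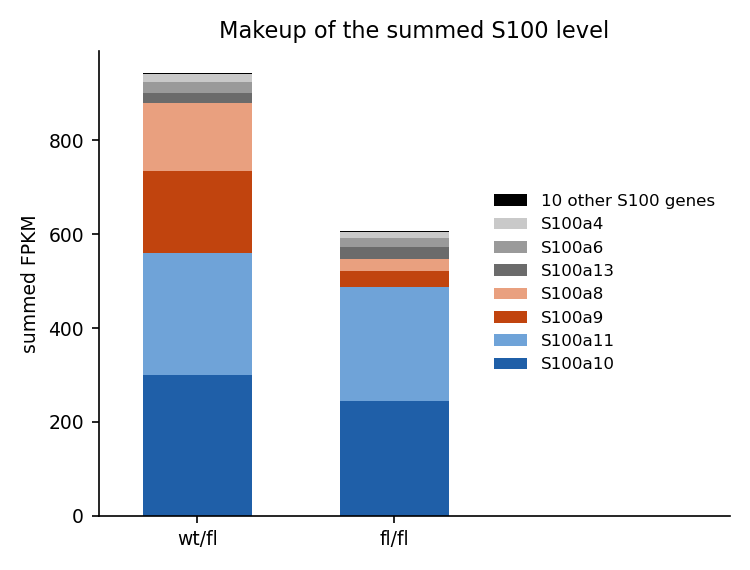
Summed FPKM of the 17 S100 genes in each genotype as stacked bars from 0, with 1 colour per gene and the 10 genes with a mean below 1 FPKM together in black. The orange parts, S100a8 and S100a9, sum to 320 FPKM in wt/fl against 60.3 in fl/fl, and the blue parts, S100a10 and S100a11, to 559 and 488 FPKM.

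The other 9 S100 genes of the table all had a mean below 1 FPKM. S100g, a calcium buffer of the gut, was at 1.70 FPKM in wt/fl against 0.213 in fl/fl. S100b, known from glia, was at 0.263 and 0.231 FPKM, S100a2 at 0.305 and 0.278 FPKM, and S100a3 at 0.232 and 0.202 FPKM. S100a7a was at 0.166 and 0.0541 FPKM. S100a5 was listed at 0 in wt/fl and at 0.367 FPKM in fl/fl, S100a16 was at 0.0959 FPKM in wt/fl and listed at 0 in fl/fl, and S100a14 and S100z were listed at 0 in both. S100pbp, which encodes a binding protein of S100 proteins and not a family member, was at 25.4 and 24.0 FPKM.

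On mm9, the build of the table's positions, 12 S100 genes lay on chromosome 3 from S100a1 to S100a9 within 185 kb, and the table had no other gene between them. S100a8 was at chr3:90472993-90473956 and S100a9 at chr3:90496555-90499613, with 22.6 kb between them. S100a6 was at chr3:90416816-90418336 and S100a4 at chr3:90407692-90409967 in the same cluster. S100a11 and S100a10 formed a separate pair 2.82 Mb further on, at chr3:93324418-93330210 and chr3:93359039-93368567. S100a7a, the neighbour of S100a8, was at 0.166 FPKM in wt/fl, and Pglyrp4, next after S100a9, was listed at 0 in both genotypes. Chtop, which lies just before S100a1, was at 110 FPKM in wt/fl against 102 in fl/fl. S100a1 and S100a13 are read in opposite directions from promoter windows that share 204 of 300 bases, yet S100a13 was 104 times as high as S100a1 in wt/fl and 75.3 times as high in fl/fl.

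The genes share a compact structure. In GENCODE M21 the first listed transcript had 3 exons in 7 of the 8 members and 4 exons in S100a13. No stretch of 31 bases in the transcripts of S100a8, S100a9, S100a1, S100a6 or S100a13 occurred in a transcript of another gene. For S100a11, 48.9% of such stretches also occurred in transcripts of other gene models, S100a11-ps among them, and for S100a4, 49.2% occurred in Gm42674. For S100a10 the share was 0.424%. Reads from these stretches could be placed on either gene, and how far this affects the levels of S100a11 and S100a4 was not tested.

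Partners of S100 proteins went both ways, with log2 ratios from -1.22 to 0.41 among genes with a mean level of 1 FPKM or more. Of 17 listed partner genes 15 had a mean level of 1 FPKM or more, with a median log2 ratio of -0.00136, and 8 were lower and 7 higher. The most abundant were Capzb, a subunit of actin capping protein, at 150 and 167 FPKM, Trp53 at 102 and 110 FPKM, and Anxa6, an annexin, at 73.1 and 85.8 FPKM. On the log2 scale with 1 FPKM added, Myh9 was the partner with a mean level of 1 FPKM or more that was past 2-fold. The ratio of S100a4 to Myh9 was 0.332 in wt/fl and 0.614 in fl/fl, with a lower level of both genes in fl/fl. Anxa2, the partner of S100a10, was far below it at 4.62 FPKM in wt/fl against 2.25 in fl/fl, which is 48.6% as a plain ratio, with a log2 ratio of -0.79 after 1 FPKM was added. It was named after its values were seen. S100a10 was 64.8 times as high as Anxa2 in wt/fl and 109 times as high in fl/fl.

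Receptors are known through which S100 proteins act outside the cell. Of 11 such genes 9 had a mean level of 1 FPKM or more, with a median log2 ratio of 0.03, and 4 were lower and 5 higher, none of them past 2-fold on the log2 scale with 1 FPKM added. As a plain ratio Ager was past 2-fold, at 1.01 and 2.27 FPKM, and so were Cd14 and Cd33, whose means were below 1 FPKM and whose fl/fl levels were 22.3% and 38.1% of the wt/fl levels. These 3 genes were named after their values were seen. Bsg, which encodes basigin, was at 49.0 and 46.9 FPKM, Cd69 at 35.4 and 28.3 FPKM, and Myd88, an adaptor of Toll-like receptors, at 12.8 and 13.4 FPKM. Tlr4, a receptor for calprotectin that was named after its values were seen, was at 9.75 and 9.73 FPKM. Of 22 genes of other EF-hand proteins 19 had a mean level of 1 FPKM or more. Their median log2 ratio was 0.01, and 9 were lower and 10 higher. Lcp1, which bundles actin, was at 525 and 615 FPKM, Myl6, a myosin light chain, at 429 and 433 FPKM, and Calm2, a calmodulin gene, at 235 and 260 FPKM.

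Factors known to act on the S100a8 and S100a9 genes in myeloid cells were also looked at. None with a mean level of 1 FPKM or more was past 2-fold. Of 8 such genes in the table, 4 had a mean level of 1 FPKM or more, all lower in fl/fl, with a median log2 ratio of -0.19. The log2 ratios of Stat3, Gfi1 and Hif1a were -0.26, -0.12 and -0.10. These 3 lay inside the central range of all genes, from -0.34 to 0.31, and Cebpb at -0.37 lay just below it. Stat3 was at 43.8 and 36.3 FPKM, Hif1a at 26.8 and 25.0 FPKM, and Gfi1 at 2.37 and 2.09 FPKM. Of the C/EBP family, which drives granulocyte genes, Cebpb was at 1.46 and 0.909 FPKM, and Cebpe was at 0.257 FPKM in wt/fl and listed at 0 in fl/fl. Cebpa was at 0.0993 and 0.0245 FPKM and Cebpd at 0.208 and 0.108 FPKM. Klf5, which is outside that family, was at 0.0795 and 0.0180 FPKM. Cebpa, Cebpb, Cebpd, Cebpe and Klf5 were named after their values were seen.

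Some markers of neutrophils were lower in fl/fl along with S100a8 and S100a9. Of 35 names listed for neutrophil markers outside the S100 family, some of them second names of a gene, 30 had an entry and 14 had a mean level of 1 FPKM or more, of which 12 were lower and 2 higher in fl/fl, with a median log2 ratio of -0.66. Without the genes that are also on another list 11 were left, 10 lower and 1 higher, with a median of -1.02. At least 2-fold lower were Camp, Ngp, Lcn2, Ltf, Retnlg and Chi3l3, most of which encode granule or secreted proteins of maturing neutrophils. Over all genes 40 of 9879 (0.405%) were at that limit. The list was chosen with earlier results of these data known, so nothing is read from this count. Camp was at 15.3 FPKM in wt/fl against 1.70 in fl/fl, and Ngp at 13.4 and 1.29 FPKM. Lcn2 was at 12.6 and 1.21 FPKM, Retnlg at 1.88 FPKM in fl/fl (14.4% of its wt/fl level), Ltf at 2.31 and 0.118 FPKM, and Chi3l3 at 4.02 and 1.47 FPKM. The fl/fl level of S100a8 was 17.8% and that of S100a9 19.7% of the wt/fl level, beside 11.1% for Camp, 9.66% for Ngp and 9.57% for Lcn2.

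The neutrophil list did not move as 1 block. Its summed level over all 30 entries was 259 FPKM in wt/fl against 178 in fl/fl. Its most abundant gene, Pglyrp1, was at 90.5 and 95.6 FPKM, and without it the sum was 168 and 82.6 FPKM. Lyz2, which is also on the macrophage list, was at 72.6 and 44.9 FPKM, and Anxa1, also on the partner list, at 12.1 and 16.4 FPKM. Cxcr2, a chemokine receptor of mature neutrophils that was named after its values were seen, was at 5.99 and 4.96 FPKM. Among the markers of early granules, Prtn3 was at 0.414 FPKM in wt/fl against 0.0363 in fl/fl, Elane and Mpo were at 0.119 and 0.0916 FPKM in wt/fl and listed at 0 in fl/fl, and Ctsg was listed at 0 in both. Prtn3, Elane, Mpo and Ctsg were named after their values were seen. Fcnb, Stfa1 and BC100530 were also listed at 0 in both, and Stfa2 and Stfa3 in fl/fl alone. S100a9 was 13.9 times as high as Lcn2 in wt/fl and 28.7 times as high in fl/fl, and 2.41 times and 0.769 times as high as Lyz2. The part of neutrophil RNA in the S100a8 and S100a9 values was not tested.

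Lists for other cell types were looked at in the same way. Of 21 monocyte and macrophage markers with an entry, 10 had a mean level of 1 FPKM or more, with a median log2 ratio of -0.28, and the sum over all 21 was 108 FPKM in wt/fl against 73.6 in fl/fl. Of the 10 markers 8 were lower and 2 higher, none past 2-fold on that scale, and the higher ones were C1qb at 1.61 and 2.39 FPKM and C1qc at 1.60 and 2.04 FPKM. Lyz2 was the most abundant, followed by Cd68 at 7.41 and 6.10 FPKM and Mpeg1 at 6.62 and 4.43 FPKM. Of 14 T and NK cell markers 8 had a mean level of 1 FPKM or more, with a median of -0.30, and the sums over all 14 were 43.8 and 32.2 FPKM. Gzma led them at 16.8 and 12.1 FPKM, followed by Nkg7 at 9.01 and 5.33 FPKM and Lat at 2.86 and 2.54 FPKM. Of the 8 markers 7 were lower and 1, Cd3e, was higher, at 1.83 and 1.96 FPKM. Of 12 erythroid and platelet names with an entry 4 had a mean level of 1 FPKM or more, all lower in fl/fl and 3 of them at least 2-fold, with a median of -2.49, and the sums over all 12 were 103 and 16.8 FPKM. The 3 were globins: Beta-s was at 52.0 and 7.08 FPKM, the joined entry of Hba-a1 and Hba-a2 at 25.8 and 3.05 FPKM, and that of Hbb-b1 and Hbb-b2 at 19.2 and 3.23 FPKM. The platelet gene Ppbp was at 1.43 and 1.38 FPKM, and Pf4, with a mean below 1 FPKM, was higher in fl/fl at 0.168 and 0.880 FPKM. C1qb, C1qc, Cd3e, Ppbp and Pf4 were named after their values were seen. Of 6 plasma cell markers with an entry, 5 had such a mean, all lower, with a median of -0.43, and the sums over all 6 were 307 and 248 FPKM. Mzb1 was the most abundant of these at 189 and 140 FPKM, Irf4 was at 60.8 and 58.9 FPKM, Xbp1 at 48.8 and 45.9 FPKM, and Igj, the joining chain, was at 5.40 and 0.617 FPKM. Of 8 dendritic cell markers only Cst3 had a mean level of 1 FPKM or more, at 188 and 172 FPKM. The part of these cell types in the S100 values was not tested.

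**Figure D4:**
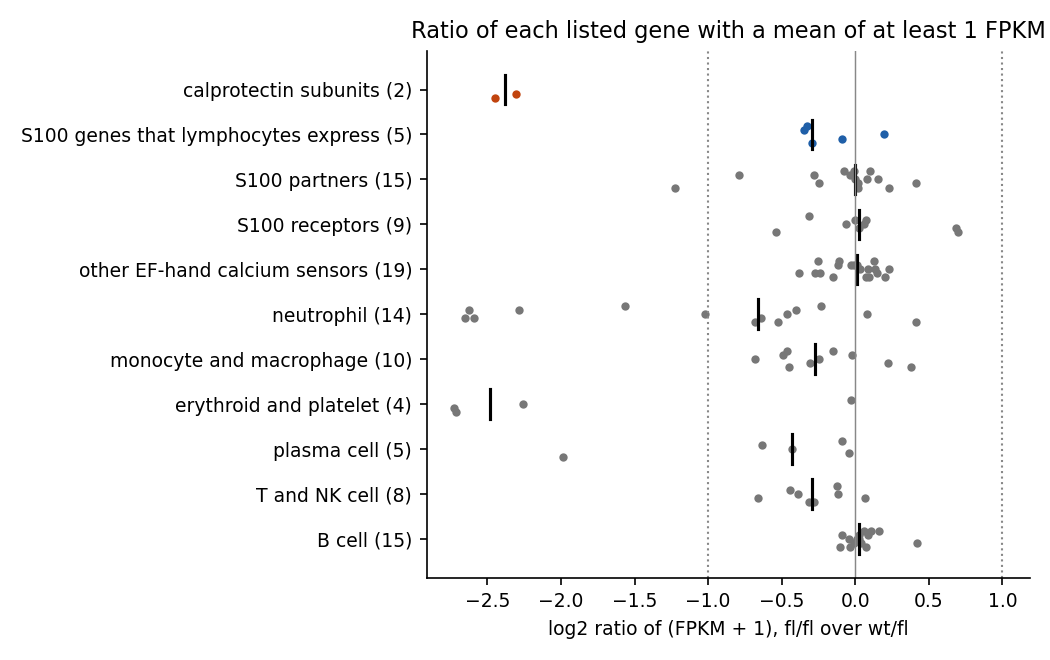
Log2 ratio of (FPKM + 1), fl/fl over wt/fl, of the genes with a mean level of 1 FPKM or more in each list shown, 1 point per gene and a bar at the median, with the number of genes in brackets; dotted lines mark 2-fold. The medians are -2.38 for the calprotectin subunits, -0.29 for the lymphocyte members, -0.66 for the neutrophil markers, -2.49 for the erythroid and platelet markers and 0.03 for the B cell markers.

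For S100a8 with S100a9, and for S100a6, S100a10 and S100a11, the genes most like them were found by the distance between their log2(FPKM + 1) values in both genotypes, over 2 pooled values. Apart from these 2 genes themselves, nearest to the mean point of S100a8 and S100a9 were Hsph1, a heat shock protein, at a distance of 0.52, then Cxcr4, Apobec3, Chordc1 and Apoe at 0.63, 0.91, 1.04 and 1.11. Hsph1 was at 129 FPKM in wt/fl against 40.3 in fl/fl, and Cxcr4, a chemokine receptor, at 113 and 39.7 FPKM. Nearest to S100a6 were Hmgb3, Smagp, N4bp2l1, Stmn1 and Plbd1, the last at a distance of 0.04, and nearest to S100a11 were Eif1, Hnrnpa2b1, Ubb, Slc25a3 and Cox7c, the last at 0.10. For S100a10 they were Cox7a2l, Hspa5, Rpl22, Ndufa3 and Mif, the last at 0.20. Among all 9879 genes S100a8 and S100a9 had log2 ratios of -2.45 and -2.31, at places 7 and 8 from the lowest. Below them were Klk1b22 at -3.51, the globin entries Hba-a1 with Hba-a2 at -2.73 and Beta-s at -2.71, and the neutrophil genes Ngp, Lcn2 and Camp at -2.65, -2.62 and -2.59. Next above them were Retnlg at -2.28 and Hbb-b1 with Hbb-b2 at -2.26.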

How the data were processed

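Per the labels, RNA of sorted follicular B cells was amplified before libraries were made. The authors deposited 1 table with the FPKM of each genotype, pooled over its 3 samples, for 25017 entries. The submitters' processing notes name Bowtie, TopHat and Cufflinks and the build mm10 (GRCm38), with no versions, whereas the positions in the table are those of mm9. Starts in the table count from 0 and are printed counted from 1. Columns of the authors' own comparison (test status, log2 fold change, test statistic, p-value, q-value and a call) were not used. Depth per sample is unknown, and low values could not be turned into whole reads.

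FPKM was summed over the entries of a gene, and genes with a mean level of 1 FPKM or more over both genotypes were kept for counts and medians. The log2 ratio was computed after 1 FPKM was added. The design allowed for a value per sample, which the table does not give, so no test was run. Members and gene lists were chosen with earlier results of these data known. Genes were named by a rule: all S100 genes, Myh9, the 3 most abundant genes of a list and its genes past 2-fold, genes between S100 genes, and the 5 genes nearest to S100a8 and S100a9, S100a6, S100a10 and S100a11. Other genes named, Klk1b22 among them, were picked after their values were seen. Listed genes that the table joins under 1 name were counted once. Spi1, Ly6g and some other listed genes were not analysed here. Promoters came from RefSeq (GRCm38.p6) and transcripts from GENCODE M21. All motifs were written after the promoter sequences had been looked at, and GGAAGT and TTNNGNAA were added to match both. Alternatives were other pseudocounts, filters, entries and scaling. The computations were tested on simulated data and run with Python 3.11.15, pandas 2.3.3, numpy 2.4.6 and matplotlib 3.10.9.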

Additional observations from a re-analysis of the deposited data

How the results depend on the processing

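No paired analysis was possible because the authors' table gives 1 pooled value per genotype, and for the same reason no sample could be left out. With no spread known, a log2 value was taken to have moved when it differed by 1.5-fold or more, and a count or percentage when it differed by over 1.5 times. Of 64 values over 6 alternatives, 7 moved, all of them counts of genes. The log2 ratio of S100a8 ranged from -2.49 to -2.34 and that of S100a9 from -2.34 to -2.19. The median of the lymphocyte members ranged from -0.29 to -0.18. S100a11 changed sign, from -0.09 to 0.02, under upper quartile scaling, which left 5 of the 7 members lower in place of 6. The number of genes at least 2-fold lower, 40, was 77 with a pseudocount of 0.1 and 23 with a mean level of 5 FPKM or more. The number at least 2-fold higher, 9, was 34 with a pseudocount of 0.1, 22 with 0.5, 19 with the highest entry of each gene, 18 after upper quartile scaling and 0 with a mean level of 5 FPKM or more. A stricter filter leaves fewer genes to count, and the cause of the other shifts was not tested. Upper quartile scaling gave 33 genes lower and 18 higher, so 64.7% of these genes were lower, against 81.6% as deposited. Without depth or replicates, the precision of a single value is unknown.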

Other observations

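S100g lies on chromosome X, outside the cluster, and had a mean of 0.955 FPKM, just under the limit of 1 FPKM. Its entry spans chrX:159339492-159472473 on mm9, far longer than the entries of the cluster. Whether all reads of that entry come from S100g was not tested. Its level was 1.70 FPKM in wt/fl against 0.213 in fl/fl, with a log2 ratio of -1.15 after 1 FPKM was added, and at this level the value has no known precision.

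Ager, a receptor for several S100 proteins, was at 1.01 FPKM in wt/fl against 2.27 in fl/fl, and Ly96, the co-receptor of Tlr4, was at 3.23 and 5.79 FPKM, with log2 ratios of 0.70 and 0.68, the highest of the list among genes with a mean level of 1 FPKM or more. Emb, which encodes embigin, was the lowest, at 2.29 and 1.27 FPKM with a log2 ratio of -0.54. The 3 genes were picked after their values were seen, and none reached 2-fold on the log2 scale with 1 FPKM added.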
